A study of Rattus norvegicus with 16 samples.

Results

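The neutrophil-attracting CXC chemokines and their receptors are 7 genes of the rat, of which Cxcl1, Cxcl2, Cxcl3, Cxcl6 and Ppbp encode ligands and Cxcr1 and Cxcr2 encode receptors. They were chosen by name: every probe whose RefSeq transcript belongs to a listed symbol, with control spots left out, was taken. The list was proposed with earlier results of the same arrays known, and which values weighed in that choice is not recorded, so the members are described here by levels, differences and calls, with no p of their own. Probes were found for 6 of the 7 genes, 1 probe each, out of 30367 probes, of which 18006 carry the symbol of 1 of 15159 genes. Cxcl3 was not matched and is not analysed here.

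RNA of normal distal colon was hybridised to 1-colour Agilent arrays, 1 array for each of 16 male rats, in 4 groups of 4. All rats were F1 offspring of the ACI and F344 strains and 97 days old, and were either Apc wild type (here wildtype) or Pirc/+, that is, heterozygous for the Pirc mutation of the tumour suppressor Apc, which makes rats develop colonic tumors. The strain label of the wildtype rats also carries the word Pirc, so the genotype label was used. In each genotype, 4 rats were untreated and 4 had received dextran sodium sulfate (DSS), a polymer that injures the colonic epithelium and inflames the colon, at 4% in drinking water on days 40 to 47 and again on days 54 to 61. Sampling thus came 36 days after the last DSS.

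Neutrophils leave the blood along gradients of CXC chemokines. The ligands are small secreted proteins, made by epithelial cells, fibroblasts and macrophages after interleukin 1, tumor necrosis factor or microbial products activate the transcription factor NF-kappaB. Their receptors are carried mainly by neutrophils, and the movement of neutrophils into the lamina propria and crypts is a hallmark of active colitis.

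The ligand genes lie on chromosome 14, in the order Cxcl2, Cxcl1, Cxcl3, Ppbp and Cxcl6, and the receptor genes Cxcr2 and Cxcr1 lie on chromosome 9. Genes other than the members were not placed in this order. The 250 bases before the annotated start of each measured ligand gene are shown because these 4 genes differed in their pattern over the groups. Capitals mark matches to the kappaB motif GGNNTTTCC on either strand. The sequences are those of RefSeq on the GRCr8 assembly, all from the minus strand and printed 5′ to 3′: Cxcl1 at chr14:17479322-17479571, Cxcl2 at chr14:17467256-17467505, Cxcl6 at chr14:17596418-17596667 and Ppbp at chr14:17587300-17587549.
Cxcl1: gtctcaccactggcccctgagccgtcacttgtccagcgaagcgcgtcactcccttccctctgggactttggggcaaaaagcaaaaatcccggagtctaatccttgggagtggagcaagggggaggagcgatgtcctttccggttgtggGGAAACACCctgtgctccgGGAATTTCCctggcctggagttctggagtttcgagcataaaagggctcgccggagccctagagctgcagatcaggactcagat
Cxcl2: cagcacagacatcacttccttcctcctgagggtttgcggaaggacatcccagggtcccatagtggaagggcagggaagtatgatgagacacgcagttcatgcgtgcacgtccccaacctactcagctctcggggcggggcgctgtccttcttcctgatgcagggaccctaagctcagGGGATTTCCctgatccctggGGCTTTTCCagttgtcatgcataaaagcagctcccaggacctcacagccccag
Cxcl6: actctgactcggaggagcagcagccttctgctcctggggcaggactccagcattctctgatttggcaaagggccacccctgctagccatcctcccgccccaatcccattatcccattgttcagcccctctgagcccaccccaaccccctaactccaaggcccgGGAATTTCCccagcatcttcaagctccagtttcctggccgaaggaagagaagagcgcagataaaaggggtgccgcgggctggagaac
Ppbp: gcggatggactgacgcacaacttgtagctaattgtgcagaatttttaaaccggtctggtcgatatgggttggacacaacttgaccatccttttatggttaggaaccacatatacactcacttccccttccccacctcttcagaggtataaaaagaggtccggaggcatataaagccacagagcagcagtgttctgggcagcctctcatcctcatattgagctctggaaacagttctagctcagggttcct

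In this window Cxcl1 held 2 matches, 102 to 94 bases (on the opposite strand) and 83 to 75 bases before the start. Cxcl2 also held 2, at 73 to 65 and 53 to 45 bases, and Cxcl6 held 1, at 87 to 79 bases. Ppbp, Cxcr1 and Cxcr2 held 0 each. The motif was found in 5.19% of the 33469 promoters in the table. The letters TATAAA, present in 12.9% of the promoters, occurred 2 times in Ppbp, at 105 to 100 and 83 to 78 bases before the start. The motif TGANTCA of the transcription factor AP-1, present in 6.34%, was in no member. A match is a description of the sequence and shows no binding.

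Levels are given as log2 of the processed signal relative to the 75th percentile of the array, so that 0 is the level of a bright probe and values near -7 lie close to the background. A probe counts as well above background on an array where most of its spots do. By array, 71.1% to 80.3% of spots passed that mark. Precision is set by the number of arrays. The 11 measured epithelial markers, among them Epcam, Cdh1, Krt8 and Vil1, were well above background on 16 of 16 arrays. Each of the 2 slides held 2 rats of every group, and each group lay in 1 array column, so an effect of the column and of the group cannot be told apart. For 14 of 16 rats the array most correlated with its own over all probes belonged to the same group. The exceptions were DSS-treated wildtype rat 26 and untreated Pirc rat 23, each nearest to untreated wildtype rat 25, with Pearson r of 0.988 for both. These 3 rats lay in the same row of slide 2.

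Over both genotypes, the ligands Cxcl1, Cxcl2, Cxcl6 and Ppbp and the receptor Cxcr2 were called higher after DSS. To be called, a probe had to differ by a factor of 2 or more and have a limma adjusted p of at most 0.05 over all probes. These 5 of 6 measured members stand beside 5% of all probes called higher in that comparison. In Pirc rats alone the same 5 were called higher (5.51% of all probes), and in 5 members no untreated rat reached the level of any DSS-treated rat (8.88% of all probes). In wildtype rats 4 were called higher, Cxcl1, Cxcl2, Cxcl6 and Cxcr2 (2.37% of all probes), and these 4 also did not overlap (8% of all probes). Without rat 26 the count called was again 4. No member was called lower in any of the 7 comparisons (0 in each). Because the members were proposed with these results known, nothing is read from the counts.

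Over both treatments 4 members were called higher in Pirc rats than in wildtype rats, the ligands Cxcl1, Cxcl2, Cxcl6 and Ppbp (1.22% of all probes). The call of Ppbp was lost in 1 of 27 alternative settings, at 0.68 with normexp. Among untreated rats 0 members were called, as were 0% of all probes by limma, with 3103 probes at an unadjusted p under 0.05 and 0 called without moderation of the variance. Without rat 23 it was again 0. In that comparison 3 members, Cxcl1, Cxcl2 and Cxcl6, did not overlap between the genotypes (4.69% of all probes). Among DSS-treated rats the 4 ligands were called higher in Pirc rats (3.1% of all probes), and 3 of them, Cxcl1, Cxcl6 and Ppbp, did not overlap (9.62% of all probes). The difference between the DSS effects of the genotypes was called for 0 members (0.0428% of all probes, or 13 probes, with 3234 at an unadjusted p under 0.05 and 8 called without moderation). The comparisons share groups of rats with each other and are not independent.

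**Figure D1:**
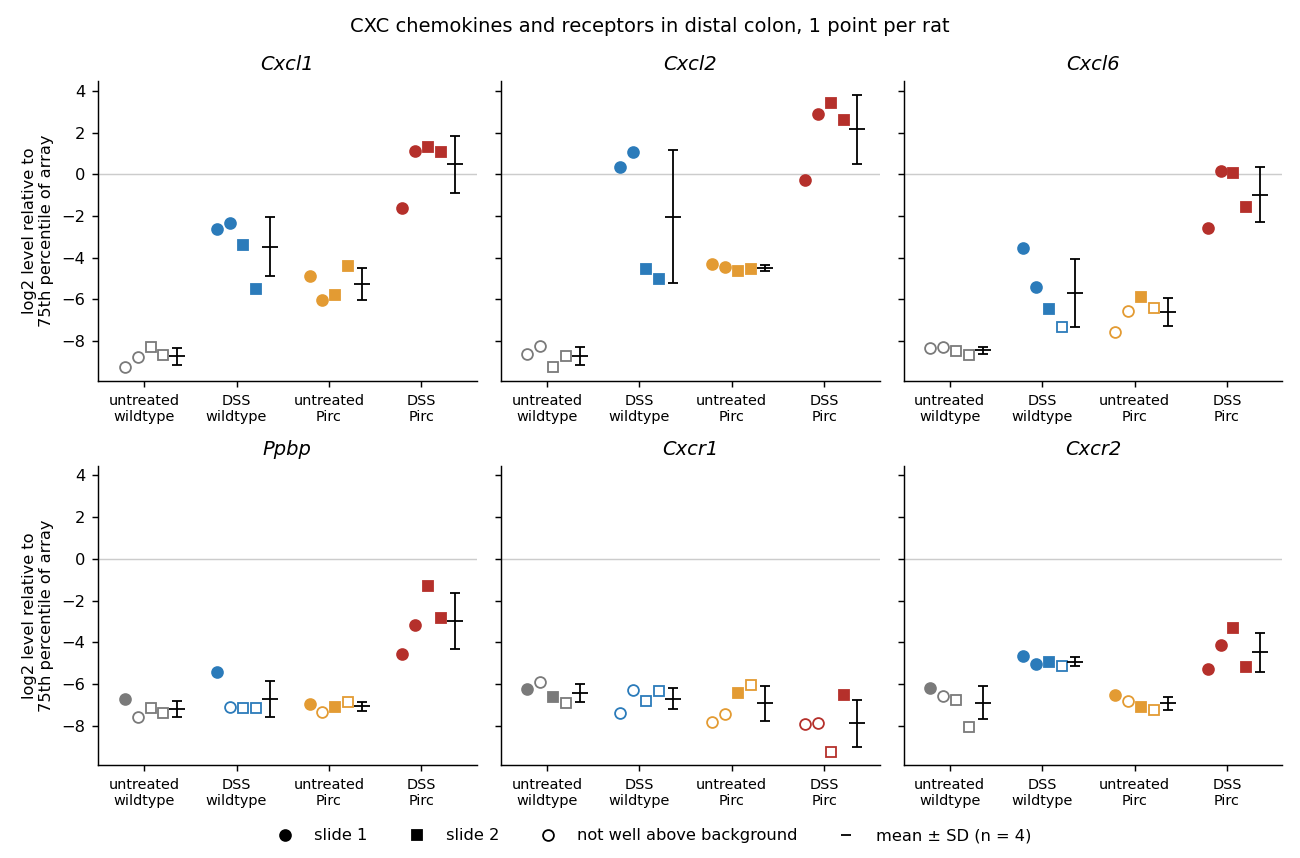
Log2 level of the 6 measured genes relative to the 75th percentile of the array (vertical axis) in each rat, by group (horizontal axis), with circles for slide 1, squares for slide 2, open symbols where the probe was not well above background, and the mean ± SD of 4 rats in black. Cxcl1 and Cxcl2 were not well above background in any of the 4 untreated wildtype rats, and Ppbp stood high only in the 4 DSS-treated Pirc rats and, less so, in DSS-treated wildtype rat 14.

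Cxcl1, a chemokine first known as a growth-regulated gene and a major neutrophil attractant of rodents, was measured by 10 spots. In the untreated wildtype rats 13, 17, 21 and 25 its level was -9.23, -8.76, -8.26 and -8.68, and none of these 4 arrays was well above background. DSS-treated wildtype rats 14, 18, 22 and 26 had -2.62, -2.33, -3.41 and -5.49. Every DSS-treated wildtype rat lay above every untreated one, with rat 26 lowest. Untreated Pirc rats 11, 15, 19 and 23 had levels of -4.89, -6.01, -5.77 and -4.39. DSS-treated Pirc rats 12, 16, 20 and 24 had -1.60, 1.14, 1.3 and 1.05. In Pirc rats the groups did not overlap either, although rat 12 stood well below the other DSS-treated rats.

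The difference after DSS was 5.73 (SE 0.70, 95% interval 4.24 to 7.23) in Pirc rats, a factor of 53.3, and was called. In wildtype rats it was 5.27 (SE 0.70) and was called, as in 25 of 27 alternative settings. The exceptions were a background correction by normexp (1.73) and a common floor for dim probes (2.75), both of which raise the lowest values. Since the untreated wildtype level has only an upper bound, DSS-treated wildtype rats are given as at least 10.8-fold higher, and untreated Pirc rats as at least 3.1-fold higher than untreated wildtype rats, a fitted difference of 3.47 (SE 0.70) that was not called. These bounds set the mean of the brighter group against, on each dim array, the lowest level of any probe well above background or the level of the probe itself where that was higher. They hold only for the scaling used here. In alternative settings the log2 difference fell to 1.73 for DSS in wildtype rats and to 0.46 between the untreated genotypes, smaller than these bounds. After DSS, Pirc rats were 3.93 (SE 0.70) above wildtype rats, and the difference between the DSS effects was 0.47 (95% interval -1.65 to 2.58).

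Cxcl2, a chemokine released by macrophages and epithelium and known as a macrophage inflammatory protein, had the largest DSS differences among the members. Its levels in untreated wildtype rats 13, 17, 21 and 25 were -8.61, -8.22, -9.25 and -8.73, again with 0 of 4 arrays well above background. DSS-treated wildtype rats were split, with rats 14 and 18 at 0.34 and 1.08 and rats 22 and 26 at -4.53 and -5.01. Rats 22 and 26 were close to the untreated Pirc rats 11, 15, 19 and 23, whose levels lay tightly together at -4.28, -4.47, -4.64 and -4.56. DSS-treated Pirc rats 12, 16, 20 and 24 had -0.28, 2.89, 3.41 and 2.60.

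DSS-treated Pirc rats were 6.64 (SE 1.17, 95% interval 4.15 to 9.14) above untreated Pirc rats in Cxcl2, a factor of 100.03. In wildtype rats the difference was 6.67 (SE 1.17), or at least 29.1-fold with the scaling used here. Both were called, the wildtype one in 24 of 27 alternative settings. It was lost with normexp (3.08), with the common floor (4.19) and when only the compared groups were fitted. The difference between the DSS effects was -0.03 (95% interval -3.55 to 3.49), an interval wide enough to hold a large difference in either direction. It ran from -1.02 to 2.74 in alternative settings. With the scaling used here, untreated Pirc rats stood at least 5.31-fold above untreated wildtype rats, a difference not called. In alternative settings its log2 value fell to 0.87, smaller than this bound. After DSS the genotypes differed by 4.19 (SE 1.17), which was called here and in 23 of 27 alternative settings although rat 12 lay below wildtype rats 14 and 18.

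Cxcl6, a further neutrophil-attracting ligand of the same receptors, was dimmer. In untreated wildtype rats 13, 17, 21 and 25 its levels were -8.34, -8.27, -8.49 and -8.66, with 0 of 4 arrays well above background. DSS-treated wildtype rats 14, 18, 22 and 26 had -3.54, -5.41, -6.47 and -7.33, and 3 of these arrays were well above background. Untreated Pirc rats 11, 15, 19 and 23 lay at -7.54, -6.54, -5.90 and -6.41, with 1 of 4 well above background. Levels in DSS-treated Pirc rats 12, 16, 20 and 24 reached -2.59, 0.14, 0.04 and -1.55. The DSS-treated Pirc rats thus stood above all other rats, and the DSS-treated wildtype rats were spread from near background to the edge of that group.

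The DSS difference of Cxcl6 was 5.61 (SE 0.72) in Pirc rats and 2.76 (SE 0.72) in wildtype rats, where it was at least 2.31-fold with the scaling used here. In alternative settings the log2 difference in wildtype rats fell to 0.67, smaller than this bound. The Pirc difference, which rests on untreated levels close to background, was 3.53 with normexp and was called in 27 of 27 alternative settings. The wildtype call was made in only 8 of 27. After DSS, Pirc rats were 4.70 (SE 0.72) above wildtype rats. The DSS effect was 2.85 (SE 1.01, 95% interval 0.69 to 5.02) larger in Pirc rats, which was not called.

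Ppbp, the pro-platelet basic protein, is the precursor of a neutrophil-attracting chemokine stored in the granules of platelets. Its 10 spots gave -6.71, -7.57, -7.16 and -7.39 in untreated wildtype rats 13, 17, 21 and 25, and -6.97, -7.34, -7.11 and -6.85 in untreated Pirc rats 11, 15, 19 and 23. DSS-treated wildtype rats 14, 18, 22 and 26 had -5.44, -7.12, -7.15 and -7.17, so that rat 14 alone left the range of the untreated rats. DSS-treated Pirc rats 12, 16, 20 and 24 had -4.58, -3.16, -1.29 and -2.86, above every other rat, with 4 of 4 arrays well above background.

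Ppbp was called higher after DSS in Pirc rats, by 4.09 (SE 0.54). With 2 of the 4 untreated Pirc arrays well above background, the size depended on the setting and was 2.05 with normexp, but the call was made in 27 of 27 alternative settings. In wildtype rats the difference was 0.48 (95% interval -0.66 to 1.63) and was not called. Untreated Pirc and wildtype rats overlapped and differed by 0.14 (95% interval -1.01 to 1.29). After DSS, Pirc rats lay 3.75 (SE 0.54) above wildtype rats. Between the genotypes the DSS effects differed by 3.61 (SE 0.76, 95% interval 1.98 to 5.23), the largest such difference among the members, but it too was not called over all probes. Without DSS-treated Pirc rat 12 it was called, at 4.15.

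Cxcr2, the receptor that binds all of these ligands and guides neutrophils into tissue, was present at low levels. Untreated wildtype rats 13, 17, 21 and 25 had -6.18, -6.56, -6.78 and -8.04, and untreated Pirc rats 11, 15, 19 and 23 had -6.54, -6.82, -7.11 and -7.22. DSS-treated wildtype rats 14, 18, 22 and 26 had -4.64, -5.02, -4.92 and -5.13, and DSS-treated Pirc rats 12, 16, 20 and 24 had -5.30, -4.15, -3.30 and -5.19. All 8 DSS-treated rats lay above all 8 untreated rats, and the genotypes overlapped under both treatments.

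After DSS, Cxcr2 was called higher by 2.44 (SE 0.43) in Pirc rats and by 1.96 (SE 0.43) in wildtype rats. The arrays of 1 of 4 untreated wildtype and 2 of 4 untreated Pirc rats were well above background. The call in wildtype rats was made in 22 of 27 alternative settings. It was lost with normexp (0.60), with the common floor (1.28), without DSS-treated rat 14 (1.87) or 18 (1.99) and without untreated rat 25 (1.58). In Pirc rats and over both genotypes the call was lost in 1 of 27, with normexp, at 0.97 and 0.78. Pirc and wildtype rats differed by -0.03 (95% interval -0.94 to 0.88) when untreated and by 0.44 (95% interval -0.47 to 1.35) after DSS, neither of which was called. In a piece of tissue, more cells that carry a transcript and more transcript in each cell cannot be told apart.

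Cxcr1, the narrower receptor of the family, was well above background on only 4 of 16 arrays. Its levels ran from -6.91 to -5.92 in untreated wildtype rats, from -7.37 to -6.31 in DSS-treated wildtype rats, from -7.83 to -6.04 in untreated Pirc rats and from -9.24 to -6.51 in DSS-treated Pirc rats. All groups overlapped, no comparison was called, and levels so close to the background set only an upper limit on the transcript.

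**Figure D2:**
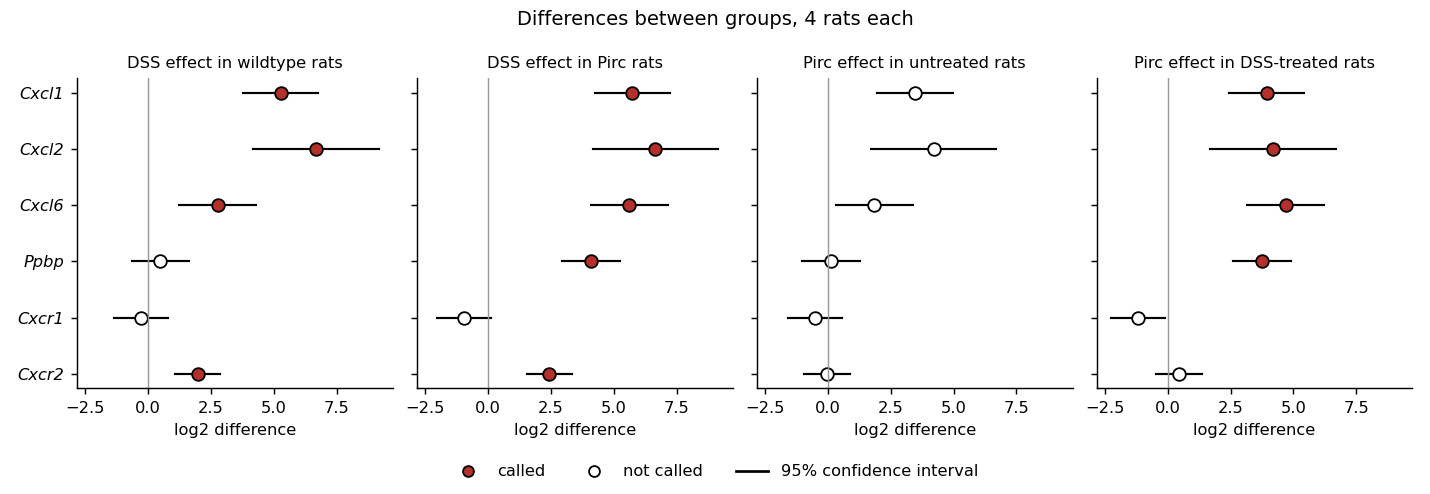
Log2 difference between groups of 4 rats (horizontal axis) for the 6 measured genes (rows) in 4 comparisons, with 95% confidence intervals from the fit across all probes. Filled points were called. Ppbp was called in Pirc rats after DSS (4.09) and not in wildtype rats (0.48), while Cxcr2 was called for DSS in both genotypes and for genotype in neither treatment.

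The order of the groups differed among the members. The mean levels of Cxcl1 ran from -8.73 ± 0.40 (SD, n = 4) in untreated wildtype rats through -5.27 ± 0.76 in untreated Pirc and -3.46 ± 1.43 in DSS-treated wildtype rats to 0.47 ± 1.38 in DSS-treated Pirc rats. Cxcl2 followed the same order, at -8.70 ± 0.42, -4.49 ± 0.16, -2.03 ± 3.18 and 2.16 ± 1.66. In both genes the untreated Pirc and the DSS-treated wildtype rats are neighbours whose ranges overlap. Cxcl6 had means of -8.44 ± 0.17, -6.60 ± 0.68, -5.69 ± 1.63 and -0.99 ± 1.32 in that order, and the same neighbours overlap. The mean of Ppbp was -2.97 ± 1.35 in DSS-treated Pirc rats and lay between -7.21 and -6.72 in the other 3 groups, which overlap. These levels are those of different probes and are not compared between genes.

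Within both slides the DSS differences of Cxcl1, Cxcl2, Cxcl6, Ppbp and Cxcr2 were above 0 in each genotype, but in wildtype rats their sizes were unlike. On slide 1, with DSS-treated wildtype rats 14 and 18, the Cxcl2 difference was 9.13, and on slide 2, with rats 22 and 26, it was 4.22. For Cxcl1 the values were 6.52 and 4.02, for Cxcl6 3.83 and 1.68, and for Ppbp 0.86 and 0.11, while Cxcr2 went the other way with 1.54 and 2.39. In Pirc rats the slides gave 5.22 and 6.25 for Cxcl1, 5.68 and 7.61 for Cxcl2, 5.81 and 5.40 for Cxcl6, 3.29 and 4.90 for Ppbp, and 1.95 and 2.92 for Cxcr2. The genotype difference of Cxcl2 after DSS was 0.60 on slide 1 and 7.78 on slide 2. With 2 rats against 2 within a slide, no test was made, and the part of the slide in these spreads was not tested.

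**Figure D3:**
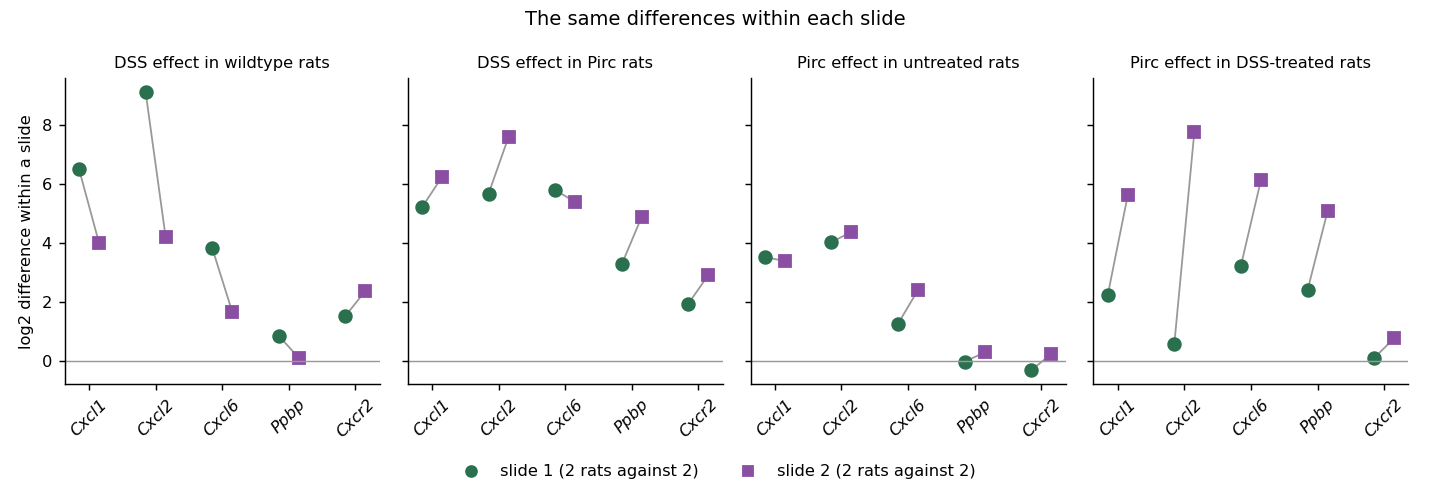
Log2 difference (vertical axis) within slide 1 (circles) and within slide 2 (squares), 2 rats against 2, for 5 genes in 4 comparisons; lines join the values of 1 gene. The slides lie farthest apart for Cxcl2, at 9.13 and 4.22 for DSS in wildtype rats and at 0.60 and 7.78 for the genotypes after DSS.

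Rats of a group tended to hold the same rank in several members. Among DSS-treated Pirc rats, rat 12 was the lowest in Cxcl1, Cxcl2, Cxcl6, Ppbp and Cxcr2. Among DSS-treated wildtype rats, rat 26 was the lowest in these 5 genes, and rats 14 and 18 held the top ranks in the 4 ligands. Over the 16 arrays, Pearson r was 0.97 between Cxcl1 and Cxcl2, 0.94 between each of these and Cxcl6, and 0.93 between Cxcl6 and Ppbp. After subtraction of the group means, these became 0.77 for Cxcl1 with Cxcl2, 0.65 for Cxcl1 with Cxcl6, 0.77 for Cxcl2 with Cxcl6 and 0.70 for Cxcl6 with Ppbp. Genes on 1 array share its scaling and its slide. The probe sequences were not used here, so cross-hybridisation between these related transcripts was not tested.

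Among 9972 other named genes well above background on all 16 arrays, those with the highest Pearson r to each member over the 16 arrays included several genes of inflammation. Cxcl1 was nearest to Tnf, the gene of tumor necrosis factor (0.98), followed by S100a9, Plat, Mmp7 and Duox2. Cxcl2 was nearest to Fcer1g, an Fc receptor chain of myeloid cells (0.96), and Il1b, the gene of interleukin 1 beta (0.96), followed by Tyrobp, Serping1 and Ncf4. Cxcl6 was nearest to Mmp7, a matrix metalloproteinase of epithelial cells (0.98), followed by S100a9, Ctla2a, Ttc9 and Mfge8. Ppbp was nearest to Upk1a, which encodes a membrane protein of the urothelium (0.99), followed by Prss27, Cflar, Ttc9 and Dapp1. Cxcr2 was nearest to Emp1 (0.95), followed by Slfn2, Dgat2, Ptafr and Itgb7. The members themselves were well above background on 12 (Cxcl1 and Cxcl2), 8 (Cxcl6 and Ppbp) and 10 (Cxcr2) of the 16 arrays. With the nearest gene, r after subtraction of the group means was 0.83, 0.77, 0.88, 0.91 and 0.86 for Cxcl1, Cxcl2, Cxcl6, Ppbp and Cxcr2. The correlations over the 16 arrays reflect the group differences as well as the spread between rats, and are given as a description.

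The split of the DSS-treated wildtype rats in Cxcl2 was also seen in Il1b. Il1b stood at 0.37 and 1.02 in rats 14 and 18 and at -3.64 and -3.03 in rats 22 and 26. Untreated wildtype rats lay between -6.41 and -5.19 in Il1b, and untreated Pirc rats between -4.42 and -3.86. Tnf in the DSS-treated wildtype rats 14, 18, 22 and 26 was -2.27, -2.81, -3.44 and -4.17, a graded series with no such gap. Upk1a was -1.5, -0.27, 1.36 and 0.44 in DSS-treated Pirc rats 12, 16, 20 and 24, the same rank order as in Ppbp.

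**Figure D4:**
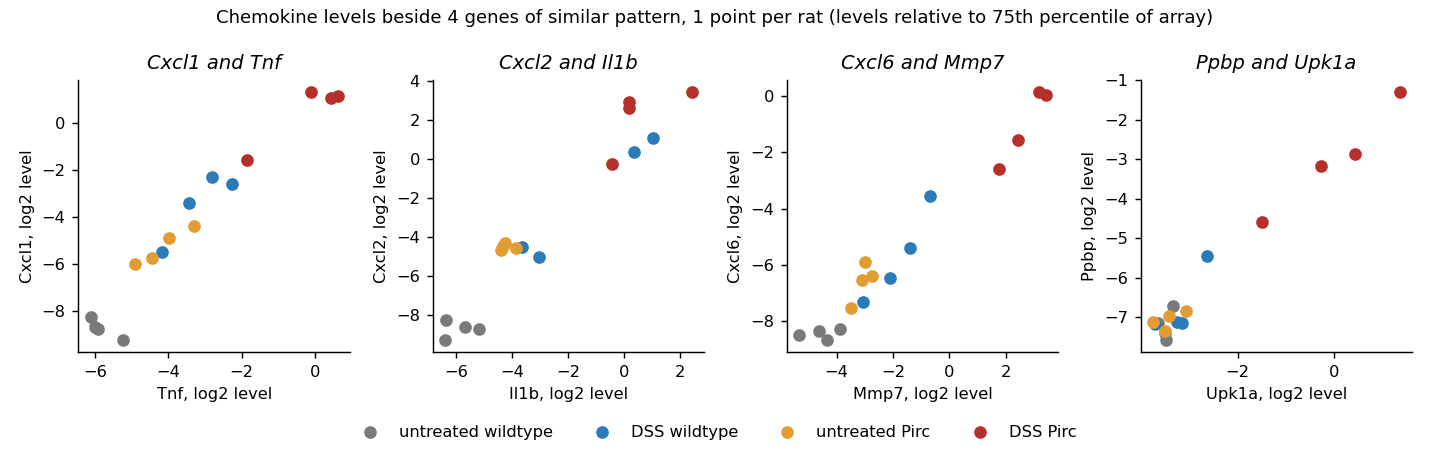
Log2 level of Cxcl1, Cxcl2, Cxcl6 and Ppbp (vertical axes) against that of Tnf, Il1b, Mmp7 and Upk1a (horizontal axes), 1 point per rat and coloured by group, all relative to the 75th percentile of the array. Ppbp and Upk1a stand apart from the mass of points mainly in the 4 DSS-treated Pirc rats, and Cxcl2 and Il1b separate DSS-treated wildtype rats 14 and 18 from rats 22 and 26.

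Several cytokines that induce these ligands were also higher after DSS. Of 13 measured inducers and sensors, 5 rose over both genotypes (Il1a, Il1b, Tnf, Il17a and Tlr2) and 0 fell, with a median difference of 0.45 against 0.06 over all probes. This and the later list counts stand beside 5% of all probes called higher for DSS over both genotypes. The share was 5.51% for DSS in Pirc and 2.37% in wildtype rats. For genotype it was 1.22% over both treatments and 3.1% after DSS. In limma's fit Il1b rose by 4.69 (SE 0.63, adjusted p = 0.000149), Il1a by 4.48 (SE 0.53, adjusted p = 6.72e-05) and Tnf by 3.29 (SE 0.37, adjusted p = 4.55e-05). Il17a was well above background on 4 arrays, all of DSS-treated Pirc rats, and its difference after DSS in wildtype rats was 1.01 (SE 0.62, limma adjusted p = 0.469). Il6 was not well above background on any array. For genotype over both treatments, 4 of the 13 rose in Pirc rats, among them Il1a by 2.81 (SE 0.53) and Tnf by 2.30 (SE 0.37), with limma adjusted p of 0.00385 and 0.00186.

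Of 7 measured subunits and feedback genes of NF-kappaB itself, 1 was called higher after DSS, beside 5% of all probes. This was Zc3h12a, which encodes an RNase that degrades cytokine transcripts, at 1.25 (SE 0.23, limma adjusted p = 0.00142). It was also higher in Pirc rats, by 1.81 (SE 0.23, limma adjusted p = 0.000554). The median of the 7 was 0.10 after DSS. Nfkbie after DSS (0.54, SE 0.15, limma adjusted p = 0.0187) and Nfkb2 in Pirc rats (0.41, SE 0.11, limma adjusted p = 0.0206) were higher by less than a factor of 2.

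Of 9 other CXC chemokines, 6 rose after DSS over both genotypes and 0 fell, with a median of 1.10. Pf4, the platelet factor, rose by 2.89 (SE 0.31, limma adjusted p = 3.72e-05), and Cxcl12, the ligand that retains leukocytes through Cxcr4, by 2.28 (SE 0.50, limma adjusted p = 0.00521). Cxcl17, a mucosal chemokine, was well above background on 5 arrays, all 4 of DSS-treated Pirc rats, which had a mean of -0.38 ± 1.95 (SD, n = 4), and 1 of a DSS-treated wildtype rat, and on 0 of the 8 arrays of untreated rats. It rose after DSS in Pirc rats (limma adjusted p = 0.000192), while the difference in wildtype rats was 0.70 (SE 0.91, limma adjusted p = 0.796). Between the genotypes it was called among DSS-treated rats (limma adjusted p = 0.000432), and untreated rats differed by 0.58 (SE 0.91, limma adjusted p = 0.862). The difference between the DSS effects had a limma adjusted p of 0.105. Cxcl14 was higher in Pirc rats over both treatments by 1.01 (SE 0.30, limma adjusted p = 0.0293). Within each genotype alone, 3 of the 9 were called higher after DSS. Between the genotypes after DSS the median of the 9 was -0.36, with 1 called higher and 1 called lower in Pirc rats. Of 6 other CXC and atypical receptors 3 rose after DSS, with Cxcr4 up by 1.72 (SE 0.23, limma adjusted p = 0.000148) and Ackr2, a scavenger of inflammatory chemokines, by 1.03 (SE 0.28, limma adjusted p = 0.0197). The third, Cxcr6, was called but was well above background on no array, and no fold is given.

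Genes by which neutrophils sense attractants and attach to vessels were called higher after DSS in 7 of 12 measured cases and lower in 0, with a median of 1.5. The count was 2 with normexp and 3 with the common floor, and Itgal, 1 of the 7, was well above background on 0 arrays. C5ar1, the complement C5a receptor, rose by 2.66 (SE 0.38, limma adjusted p = 0.00022), and Itgb2, the beta chain of the leukocyte integrins, by 2.63 (SE 0.29, limma adjusted p = 3.72e-05). For genotype over both treatments 0 of the 12 were called. Of 10 genes that act downstream of the receptors, 2 rose after DSS, Rac2, a GTPase of blood cells, by 1.63 (SE 0.18, limma adjusted p = 3.72e-05) and Fgr, a myeloid kinase, by 1.46 (SE 0.23, limma adjusted p = 0.00049). Rac2 was also higher in Pirc rats, by 1.12 (SE 0.18, limma adjusted p = 0.00172).

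Of 12 measured markers of neutrophils themselves, 2 were called higher after DSS, beside 5% of all probes. S100a8 rose by 3.57 (SE 0.43) and S100a9 by 3.0 (SE 0.34), with limma adjusted p of 7.3e-05 and 4.61e-05. Both encode the subunits of calprotectin, which epithelial cells also make under inflammation. Of the granule genes, Elane, Ctsg and Ngp were well above background on no array, Mmp8 and Ltf on 1 each. Camp was well above background on 4 of 4 arrays in each group. Its means were -3.18 in untreated and -3.50 in DSS-treated wildtype rats, and -3.30 in untreated and -2.69 in DSS-treated Pirc rats. Prtn3 was well above background on 1 of 4 arrays of DSS-treated Pirc rats and 2 of 4 in each other group. Neither was called after DSS. Csf3r, the receptor of the granulocyte growth factor, was well above background on 7 arrays, 4 of them of DSS-treated Pirc rats, and its difference of 1.05 (SE 0.36) after DSS had a limma adjusted p of 0.0641. The summed level of the 12 genes, in multiples of the 75th percentile, ran from 11.4 to 20.0125 in untreated wildtype, 13.3 to 17.2 in DSS-treated wildtype, 12.2 to 15.2 in untreated Pirc and 20.2 to 49.9 in DSS-treated Pirc rats. In untreated wildtype rats the brightest probe of the list was Padi4, at a mean level of 3.92 ± 0.39 (SD, n = 4) against 3.44 ± 0.12 in DSS-treated Pirc rats, where S100a9 reached 3.70 ± 0.95 and S100a8 2.91 ± 1.07, so the sum is set by few probes. S100a8 and S100a9 were also higher in Pirc rats over both treatments, by 1.81 (SE 0.43) and 2.31 (SE 0.34), with limma adjusted p of 0.0112 and 0.00119.

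Some markers of other cell types were also called after DSS. Of 7 platelet markers 2 rose after DSS, Pf4 and Gp1bb, the latter by 2.33 (SE 0.34, limma adjusted p = 0.000294), while Gp5, Gp9 and Treml1 were well above background on all 16 arrays and not called, and Gp1ba was well above background on none. The summed level of the platelet list ran from 0.894 to 1.32 in DSS-treated wildtype and from 0.765 to 1.12 in DSS-treated Pirc rats, against 0.440 to 0.593 in untreated rats. The ranges of these DSS-treated groups overlap, but the sum includes Gp5, Gp9 and Treml1, which were not called. Of the 2 called markers, Gp1bb had a mean of -2.06 in DSS-treated Pirc and -3.28 in DSS-treated wildtype rats, with overlapping ranges. Pf4 differed by -0.15 (SE 0.44) between these groups. Ppbp was higher in every DSS-treated Pirc rat than in any DSS-treated wildtype rat. The part of platelets in this Ppbp difference was not tested. Of 7 monocyte and macrophage markers 3 rose after DSS, Lyz2 by 2.97 (SE 0.27), Cd68 by 1.61 (SE 0.17) and Cd163 by 1.13 (SE 0.30), with limma adjusted p of 1.38e-05, 3.66e-05 and 0.016. The summed level of all 7 was 25.04 and 19.8 in DSS-treated wildtype rats 14 and 18, and 13.5 and 13.1 in rats 22 and 26. This sum includes Cd14, which was not called after DSS and had group means between 3.27 and 3.61.

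Of the marker lists, the urothelial and squamous one had the largest median after DSS, 3.64, and 7 of its 11 measured genes rose. Krt13, a keratin of stratified epithelium, rose (limma adjusted p = 0.000176) and stood at 4.00 ± 1.14 (SD, n = 4) in DSS-treated Pirc rats, with 0 of 4 untreated wildtype arrays well above background. Sprr3 rose by 5.98 (SE 0.82) and Krt4 by 4.70 (SE 0.66), with limma adjusted p of 0.000184 and 0.000207. The summed level of the list ran from 19.4 to 99.1 in DSS-treated Pirc rats and from 3.75 to 5.10 in untreated rats. In DSS-treated wildtype rats 14, 18, 22 and 26 it was 7.33, 8.84, 40.5 and 4.41, so that rat 22, low in Cxcl2 and in Ppbp, was the highest. The brightest gene of the list in untreated rats was Tp63, so their sums are set largely by 1 probe. Its group means lay between 1.78 and 2.09, and it was not called after DSS. Upk2 was well above background on no array. Among 11 epithelial markers 0 were called after DSS over both genotypes, and 1 fell after DSS in Pirc rats, Slc26a3, the chloride exchanger of surface colonocytes, with a log2 difference of -1.72 (SE 0.32, limma adjusted p = 0.00268). Its mean was 1.89 ± 0.45 (SD, n = 4) in DSS-treated Pirc rats and between 3.62 and 4.14 in the other 3 groups, and after DSS the genotypes differed by -2.25 (SE 0.32, limma adjusted p = 0.000932). Of 7 smooth muscle markers Tagln rose by 2.76 (SE 0.89, limma adjusted p = 0.0441) and Des fell by 1.49 (SE 0.31, limma adjusted p = 0.00349) after DSS. The summed level of this list was 6.99 in untreated wildtype rat 25 and 11.6 in DSS-treated wildtype rat 26, against 0.686 to 3.79 in the other 14 rats. The part of these cell types in the chemokine differences was not tested.

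**Figure D5:**
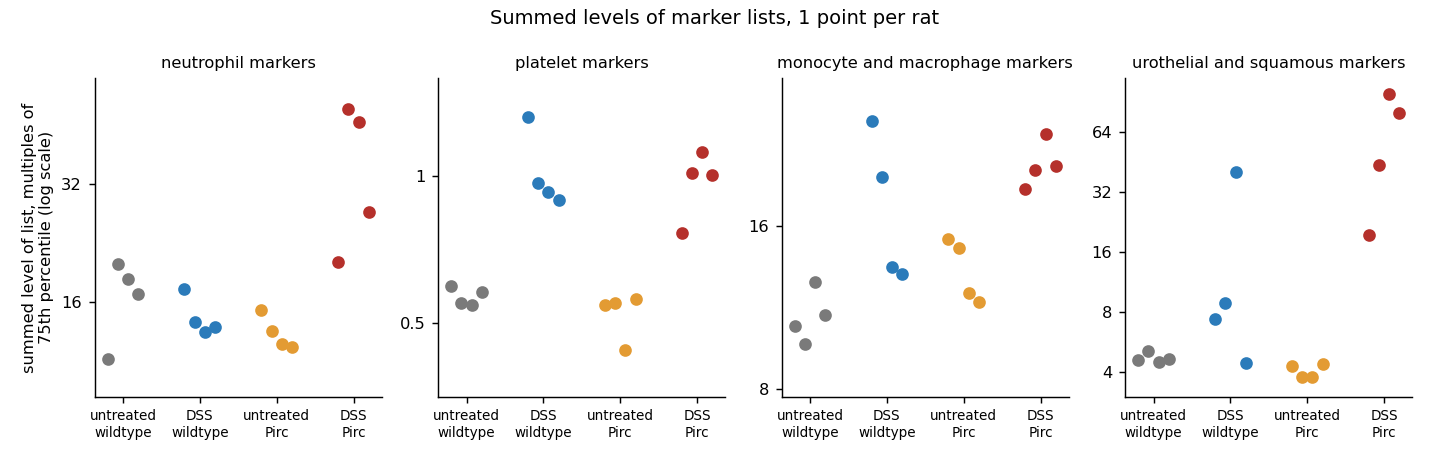
Summed level of 4 marker lists in each rat, in multiples of the 75th percentile of the array (vertical axes, log scale), by group. The urothelial and squamous list ran from 19.4 to 99.1 in DSS-treated Pirc rats, and the platelet list stood above the untreated rats in both DSS-treated groups.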

How the data were processed

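The files that the authors deposited hold spot intensities from Agilent Feature Extraction 10.7.3.1, corrected for background and not scaled across arrays. The submitters' notes also name Partek, and the array design build is rn4. Here the log2 intensity relative to the 75th percentile of each array was averaged per probe, leaving out 4259 control spots of 62976 and spots with outlier flags (25 probe values had no other spot). Probes were named by RefSeq accession and groups by genotype and treatment labels. A model with 4 group means was fitted in limma 3.58.1 (R 4.3.3; lmFit, eBayes, Benjamini-Hochberg over 30367 probes), after being tested on simulated data.

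Members and gene lists were chosen with earlier results of these data known. Named genes are all members, up to 3 called genes per list with the largest DSS effect and up to 2 with the largest Pirc effect, genes a sentence on a member turns on, and the 5 genes most correlated with each member. A gene that this rule names is not reported here. The brightest probe stood for a gene. Alternatives were quantile normalization, normexp (offset 50), median scaling, a filter or floor for dim probes, slide, array row or both as a block (the last chosen after seeing the data), no outlier removal, fits of the compared groups alone or without moderation, other thresholds and each rat left out.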

Additional observations from a re-analysis of the deposited data

Results flagged for a closer look

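In 2 of 24 sets of 4 rats (6 genes in 4 groups), 1 rat lay far from the others by Dixon's criterion, which chance meets in about 1 of 20 sets (1.2 expected here). DSS-treated Pirc rat 12 had a Cxcl1 level of -1.60, a gap to the next rat of 0.913 of the range of its group. DSS-treated wildtype rat 14 had a Ppbp level of -5.44, a gap of 0.970 of the range, and was the only wildtype rat of that treatment well above background in Ppbp.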

How the results depend on the processing

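No member difference that was called changed sign in an alternative setting (0 among 1127 compared values). Those values also hold differences that were not called, for which a change of sign was not counted. The difference between the DSS effects of Cxcl1, not called, ran from -0.21 to 2.98. A lost call was not counted as a reversal. Of the 1127 values 1081 moved by less than the spread between rats and 46 by more, 27 of them with normexp and 19 with the common floor, both of which compress dim probes. Many of the 1081 could not move. The blocks, the fit without moderation and the fits of the compared groups alone leave each difference unchanged by design. So does leaving out a rat of a group that is not in the comparison. The dim-probe filter removed Cxcr1. The number of members called for DSS in wildtype rats (4) fell to 0 with normexp, to 0 with the common floor and to 2 with only the compared groups, and was 2 to 4 when each rat was left out (2 without DSS-treated wildtype rat 14 or 18, or untreated wildtype rat 25). With normexp the wildtype differences were 1.73 for Cxcl1 and 3.08 for Cxcl2, and with the common floor 2.75 and 4.19. For the Pirc effect in untreated rats (0 called) it was 1 with only the compared groups and 1 at an adjusted p of 0.20. For the difference between the DSS effects (0 called) it was 1 at an adjusted p of 0.20 and 0 to 1 when each rat was left out (1, Ppbp, without DSS-treated Pirc rat 12). Without rat 26, 4 members were called for DSS in wildtype rats. Of 72 list counts 61 stayed within 1.5 times and 11 moved, and neutrophil receptor and adhesion genes called for DSS went from 7 to 2 with normexp and 3 with the common floor. Quantile normalization moved the median of all probes for DSS over both genotypes from 0.06 to -0.09, and normexp that for the Pirc effect in untreated rats from -0.02 to -0.18. The labels give no pairing, but each of the 4 sets of arrays that share a slide and a row holds 1 rat of every group. With these sets as a replicate block, chosen after seeing the data, the DSS effect was called for 5 members (genotypes together), 5 (Pirc) and 3 (wildtype, Cxcl6 lost), and the Pirc effect for 4 (treatments together), 4 (after DSS) and 0 (untreated). Signal over background limits Cxcr1, Cxcl6 in wildtype and untreated Pirc rats, Ppbp outside DSS-treated Pirc rats, Cxcr2 in untreated rats and every fold against untreated wildtype rats.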
